A study of Mus musculus with 9 samples.

Results

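The genes described here make fatty acids and cholesterol, together with the SREBP system that controls them. They are the 34 genes of a named list found by symbol in the deposited table, all 34 of them present among its 46078 genes. The members were chosen by names proposed with their measured lymphoma against CD4 log2 fold changes in view, so every value of that difference, and every call of a member in the fit over all genes, is a description and supports nothing. It was divided by role into a fatty acid branch of 11 genes, a sterol branch of 18 genes and 5 SREBP regulators. Transcript 3′ ends were sequenced in 6 lymphoma and 3 CD4 libraries, and a library is named by its group and the number in its label. The lymphoma group is MYCN-induced T cell lymphoma cells from the thymus. The CD4 group is CD4+ T cells from the spleen, and all samples are of the C57BL/6J strain. The transgene's promoter, the animals' age and any pooling are not given in the sources used here, nor is it said whether replicates are separate animals, so the errors measure the spread between these samples.

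Reads counted in genes ranged from 11170704 to 15769679 in lymphoma and from 8099960 to 10808828 in CD4. Lymphoma 53 stood apart from the other lymphomas, and it had the highest level of the 6 at 30.5% of the 15401 tested genes and the lowest at 33.3%. It also had the fewest reads in genes of the lymphomas (11170704). These were 38.7% of its reads, against 43.6 to 49.1% in the other lymphomas. Reads not aligned were 18.8%, against 11.6 to 14.8%. The part of these differences in its values was not tested. The T cell marker Cd3e had 150 to 217 CPM (counts scaled to a library of 1e+06) in lymphoma and 138 to 192 CPM in CD4. The 12 listed T cell markers, Cd4 among them, summed to 1882 to 3367 CPM in lymphoma and 3389 to 3763 CPM in CD4, without overlap. By an edgeR adjusted p under 0.05, 3 of 12 were lower (Cd4, Cd2 and Cd28). The other 9 did not pass, among them Cd3e, Cd3d, Cd3g and Trac. Over all tested genes, 24.7% were higher and 21.9% lower by this rule. Cd4 itself had 199 to 263 CPM in CD4 and 6.04 to 71.9 CPM in lymphoma. The CD4 libraries also held Cd8a (25.6 to 31.8 CPM) and Cd8b1 (35.9 to 44.9 CPM). In lymphoma these ran from 0.0645 to 29.4 CPM and from 0 to 47.6 CPM, with medians of 1.05 and 0.446 CPM. B cell markers were present in the CD4 libraries, where the 12 listed genes summed to 2065 to 2247 CPM, against 23.0 to 64.0 CPM in lymphoma. All 12 were lower in lymphoma, and Cd79a, Cd22, Fcer2a and Blk were at 0 in at least 1 lymphoma. The 12 myeloid markers summed to 710 to 1082 CPM in CD4 and 156 to 310 CPM in lymphoma, with 6 of 12 lower. Adipocyte markers were low in both groups, summing to 5.08 to 10.96 CPM in lymphoma and 6.202 to 12.8 CPM in CD4, with Plin1, Lep and Ucp1 at 0 in every library. Adipoq, a defining adipocyte gene, was higher in lymphoma (edgeR adjusted p 0.0138), with 10 to 33 reads in 5 lymphomas and 0 in lymphoma 53 and every CD4 library. Aqp7 of the same list was lower (edgeR adjusted p 0.0160), and the 3 others tested did not pass. Of 7 tested stromal and epithelial markers, Dcn (edgeR adjusted p 0.000193) and Epcam (0.000577) were higher, and Pecam1 and Kdr were lower. The part of these genes in the results was not tested. Tissue, tumour state and group coincide, and their parts in any difference cannot be told apart. In bulk RNA, fewer cells of a type and less RNA per cell cannot be told apart either.

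Cells build fatty acids from cytosolic acetyl-CoA, which ATP-citrate lyase cuts from exported citrate. Acetyl-CoA carboxylase and fatty acid synthase turn it into palmitate, and elongases and desaturases then lengthen it and add double bonds. The same acetyl-CoA feeds the mevalonate pathway, which leads through isoprenoids and squalene to cholesterol. SREBP transcription factors, held in the endoplasmic reticulum by INSIG proteins and escorted out by SCAP when sterol is low, drive both branches: SREBP1 is best known for fatty acid genes and SREBP2 for sterol genes. Activated and dividing lymphocytes use both branches to make membrane.

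By their medians, the branches differed in how far they stood from CD4. In the fatty acid branch the genes of the palmitate route were 3.43- to 5.76-fold higher in lymphoma, and the desaturase Scd1 was almost missing there while Scd2 of the same gene cluster was high. Sterol branch genes stayed mostly near their CD4 level. Of the 34 members, 33 passed the expression filter (all but Fads2). The median log2 fold change (lymphoma over CD4) was 1.47 over the 10 tested fatty acid genes, 0.30 over the 18 sterol genes, -0.02 over the 5 regulators and 0.04 over all tested genes. An edgeR adjusted p under 0.05, the rule for a call here, was listed for 8 of 10 fatty acid genes (6 higher, 2 lower), for 5 of 18 sterol genes (4 higher, 1 lower) and for 1 of 5 regulators (higher). Over all tested genes 46.6% were called, 24.7% higher and 21.9% lower. Among the 33 members it was 42.4%. The CPM of the groups did not overlap at 14 members, 11 with lymphoma above and 3 with lymphoma below, and at 44.9% of all tested genes, 22.6% above and 22.3% below. Nothing is read from these shares, since the list was chosen with this contrast known.

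**Figure D1:**
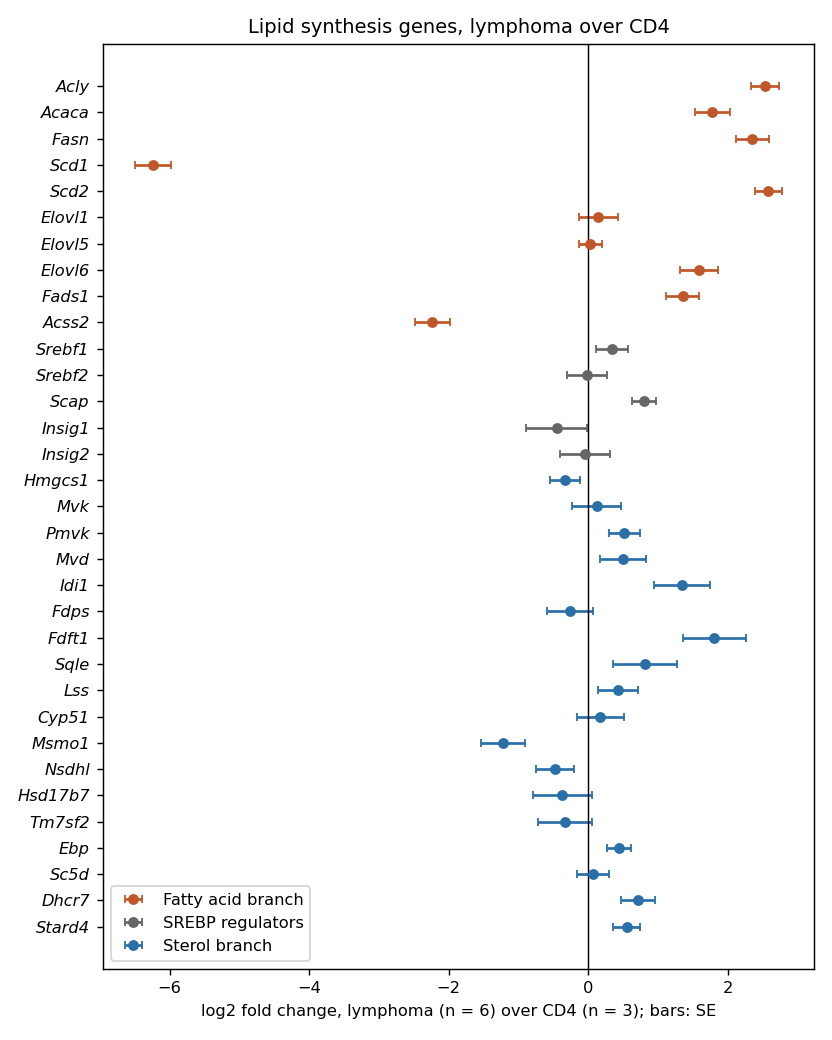
Log2 fold change of each of the 33 tested members, lymphoma (n = 6) over CD4 (n = 3), with standard error bars, in pathway order and coloured by branch. Scd1 lies at -6.24 and Acss2 at -2.23, while Acly, Fasn and Scd2 lie above 2, and most sterol genes lie within 1 log2 unit of 0.

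Acly (ENSMUSG00000020917, chr11:100476353-100528000 in GRCm38) encodes ATP-citrate lyase, the supplier of cytosolic acetyl-CoA. It had 68.3, 51.1 and 67.0 CPM in CD4 1, 2 and 3, and 279, 374 and 422 CPM as lowest, median and highest lymphoma. Every lymphoma lay above every CD4 library, and the log2 fold change was 2.53 (SE 0.20). Slc25a1, the mitochondrial citrate carrier that feeds it and no member of the list, was also higher (log2 fold change 1.23, SE 0.32, edgeR adjusted p 0.00820).

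Acaca (chr11:84129672-84401651) encodes acetyl-CoA carboxylase 1, which commits acetyl-CoA to fatty acid synthesis. Its CD4 values were 13.8, 11.5 and 10.7 CPM, and its lymphoma values ran from 32.1 CPM through a median of 37.6 to 61.7 CPM in lymphoma 86. The log2 fold change was 1.78 (SE 0.25). Fasn (chr11:120805846-120824547) encodes fatty acid synthase, which assembles palmitate. It stood at 42.4, 37.9 and 38.7 CPM in CD4 and at 161, 179 and 301 CPM (lowest, median, highest) in lymphoma, the highest being lymphoma 53. Its log2 fold change was 2.35 (SE 0.23), and for neither gene did the groups overlap.

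The stearoyl-CoA desaturases put the first double bond into saturated fatty acids, and the mouse has 4 genes for them in 1 cluster on chromosome 19. Scd2 (chr19:44293674-44306864) had 56.4, 42.4 and 37.2 CPM in CD4 and 238, 263 and 317 CPM in lymphoma, a log2 fold change of 2.58 (SE 0.20). Scd1 (chr19:44394455-44407879), whose end lies 87.6 kb from that of Scd2, showed the opposite pattern. It had 54.1, 60.5 and 52.3 CPM in CD4 and between 0.509 and 0.980 CPM in lymphoma, with a median of 0.679 CPM. Its log2 fold change was -6.24 (SE 0.26). These lymphoma values rest on 6 to 16 reads each, above the floor of 3 counts used as detection limit.

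Scd2 therefore supplied 99.6 to 99.8% of the summed Scd1 and Scd2 counts in each lymphoma (Wilson 95% interval from 99.4 to 99.8% in lymphoma 72, which had 3724 Scd2 and 14 Scd1 counts). In CD4 it supplied 51.0% (48.2 to 53.9%), 41.2% (37.9 to 44.5%) and 41.5% (38.5 to 44.7%) in libraries 1, 2 and 3. These intervals cover counting error only. No CD4 library came near any lymphoma in this share. The other cluster genes were scarce, Scd4 at 0.480 CPM in lymphoma and 0.874 CPM in CD4 on average, and Scd3 at 0.185 CPM in lymphoma and 0 counts in CD4. Of the 50-base words in the last 500 bases of Scd1 transcripts, 165 of 1182 also occur in transcripts of another gene, 135 of them in Scd3, whereas Scd2 shares none. B cell markers (12 of 12) and myeloid markers (6 of 12) were lower in the same libraries as Scd1, where 21.9% of all tested genes were. The other 6 myeloid markers did not pass. The part of B cell and myeloid markers in the Scd1 values was not tested.

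**Figure D2:**
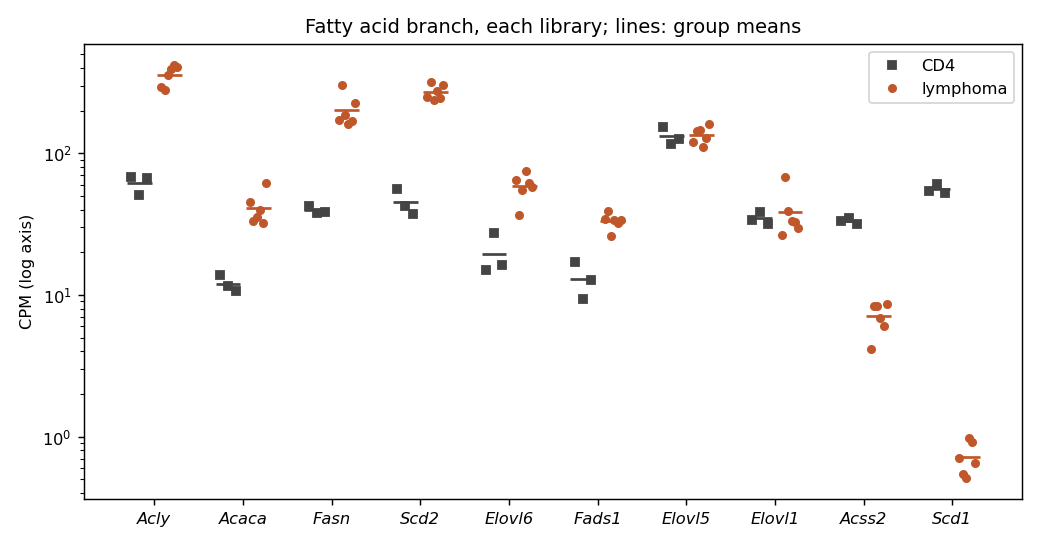
CPM of the 10 tested fatty acid branch genes in every library, on a log axis, with CD4 as squares, lymphoma as circles and group means as lines. Scd1 drops from above 50 CPM in CD4 to below 1 CPM in lymphoma, while Elovl5 and Elovl1 overlap between the groups.

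Elongases add carbon pairs to the chain, each with its own preferred substrate. Elovl6, which extends palmitate to stearate, had 15.1, 27.4 and 16.1 CPM in CD4 and 36.6, 59.8 and 74.7 CPM in lymphoma, with lymphoma 53 lowest. Its log2 fold change was 1.59 (SE 0.27), without overlap. Elovl5, which extends polyunsaturated chains, stood at 117 to 153 CPM in CD4 and 111 to 160 CPM in lymphoma (log2 fold change 0.03, SE 0.16). Elovl1, which makes very long saturated chains, had 31.5 to 38.4 CPM in CD4 and 26.6 to 68.1 CPM in lymphoma (0.14, SE 0.28, and -0.11 without lymphoma 53). Both overlapped between the groups, and neither was called.

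The front-end desaturases Fads1 and Fads2 work in turn on polyunsaturated fatty acids and also lie in 1 cluster on chromosome 19, 81.1 kb apart. Fads1 (chr19:10182888-10196877) had 17.1, 9.36 and 12.8 CPM in CD4 and 26.3, 34.03 and 39.3 CPM in lymphoma (log2 fold change 1.35, SE 0.23, no overlap). Fads2 (chr19:10062765-10101746), which acts before it, had 13, 0 and 0 counts in CD4 1, 2 and 3. In lymphoma it had 4 and 5 counts in libraries 34 and 53 and 0 in the other 4. It was therefore at or near the detection limit of 3 counts in both groups except in CD4 1, and no fold is given. The third gene of this cluster, Fads3, had 0.0796 CPM in lymphoma and 0.502 CPM in CD4 on average and was not tested.

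Acss2 makes acetyl-CoA from acetate in the cytosol and nucleus, the alternative to the ATP-citrate lyase route. It had 33.2, 34.9 and 31.7 CPM in CD4 and 4.13, 7.58 and 8.66 CPM (lowest, median, highest) in lymphoma. The groups did not overlap, and the log2 fold change was -2.23 (SE 0.26). Acly and Acss2 thus stood on opposite sides of CD4, by 5.76-fold and 4.71-fold.

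The 5 regulators showed less. Scap, the sterol-sensing escort of SREBP, had 66.7, 55.8 and 54.6 CPM in CD4 and 78.9, 103 and 117 CPM in lymphoma, and it was the regulator that was called (log2 fold change 0.80, SE 0.17, no overlap). Srebf1, which encodes SREBP1, had 25.0, 18.4 and 24.1 CPM in CD4 and 20.9, 27.1 and 36.3 CPM in lymphoma (0.34, SE 0.23), with overlap. Counts per gene do not tell the SREBP1a and SREBP1c starts apart.

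Srebf2, which encodes SREBP2, had 84.3, 99.5 and 87.7 CPM in CD4 and ran from 42.2 CPM in lymphoma 86 to 139 CPM in lymphoma 53. Its log2 fold change was -0.02 (SE 0.28), so the lymphomas lay on both sides of CD4. Insig1, an SREBP2 target that retains the SCAP complex, had 4.48, 9.72 and 11.1 CPM in CD4 and 2.89, 6.04 and 9.68 CPM in lymphoma (-0.46, SE 0.44). Insig2, the second retention protein, had 11.4, 16.6 and 9.9996 CPM in CD4 and 5.66, 12.4 and 17.03 CPM in lymphoma (-0.05, SE 0.36). Neither INSIG gene was called, and both overlapped between the groups.

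The first steps of the sterol branch lie in the mevalonate pathway. Hmgcs1, which condenses acetyl-CoA units into HMG-CoA, had 74.6, 52.9 and 51.6 CPM in CD4 and 36.6, 45.8 and 64.3 CPM in lymphoma (log2 fold change -0.33, SE 0.21). The kinases Mvk (0.12, SE 0.35) and Pmvk (0.52, SE 0.22) and the decarboxylase Mvd (0.49, SE 0.33), given as log2 fold changes, were not called. Pmvk was the 1 of these whose groups did not overlap.

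The isomerase Idi1 and the squalene synthase Fdft1 had the largest log2 fold changes of the sterol branch. Idi1 had 3.82, 2.40 and 1.47 CPM in CD4 and 5.41, 6.62 and 7.40 CPM in lymphoma (1.34, SE 0.40). Fdft1, which commits farnesyl units to sterol, had 4.29, 1.44 and 4.68 CPM in CD4 and 9.17, 10.2 and 21.4 CPM in lymphoma (1.81, SE 0.45). Neither overlapped, but both had at most 51 reads in any CD4 library. The call of Idi1 was lost without CD4 2 and without CD4 3. In the last 500 bases of their transcripts, 38.8% of the 50-base words of Idi1 and 55.9% of those of Fdft1 also occur in another gene, Gm13502 and Ctsb sharing most. Words were also shared by Fdps (50.5%), Acaca (20.2%, mostly with Gm5182) and Scap (13.8%). These shares pool all annotated transcripts of a gene and are not weighted by reads. They mark counts that may be too low, and the size of that error was not measured. Fdps, the farnesyl diphosphate synthase between these steps, stood at -0.26 (SE 0.33).

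After squalene, the epoxidase Sqle had 18.6, 15.7 and 19.4 CPM in CD4 and 16.0, 25.6 and 75.3 CPM in lymphoma, the highest again being lymphoma 53. Its log2 fold change of 0.81 (SE 0.46) was 0.34 without that library, and it was called in neither fit. The cyclase Lss (0.42, SE 0.29) and the lanosterol demethylase Cyp51 (0.17, SE 0.33) were not called, and Cyp51 was -0.09 without lymphoma 53.

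Msmo1, the C4 methyl oxidase that acts on lanosterol products, was the 1 sterol gene called lower. It had 60.1, 41.2 and 32.9 CPM in CD4 and 10.5, 18.4 and 28.6 CPM in lymphoma (log2 fold change -1.23, SE 0.31), without overlap. Without CD4 1 the change was -0.94 and the call was lost. Its partners in C4 demethylation, Nsdhl (-0.47, SE 0.27) and Hsd17b7 (-0.37, SE 0.43), and the C14 reductase Tm7sf2 (-0.34, SE 0.38) were also below 0 but not called.

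The last steps lay above 0 or near it. The isomerase Ebp had 53.2, 50.6 and 49.0 CPM in CD4 and 56.5, 67.8 and 82.5 CPM in lymphoma. The groups did not overlap, but its log2 fold change of 0.44 (SE 0.17) missed the threshold, and it passed without lymphoma 34, 56 or 70. The final reductase Dhcr7 had 20.2, 10.9 and 14.2 CPM in CD4 and 19.6, 25.1 and 29.6 CPM in lymphoma (0.71, SE 0.24, called). That call was lost without lymphoma 56 or 72 and without CD4 2 or 3. Sc5d, the lathosterol oxidase, was at 0.07 (SE 0.23). Stard4, a cytosolic sterol carrier, had 31.2, 24.7 and 37.7 CPM in CD4 and 35.1, 45.5 and 55.96 CPM in lymphoma (0.55, SE 0.20, called, with overlap), and 11 of 18 alternatives lost the call, among them leaving out lymphoma 34 or 72 or CD4 1 or 2.

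**Figure D3:**
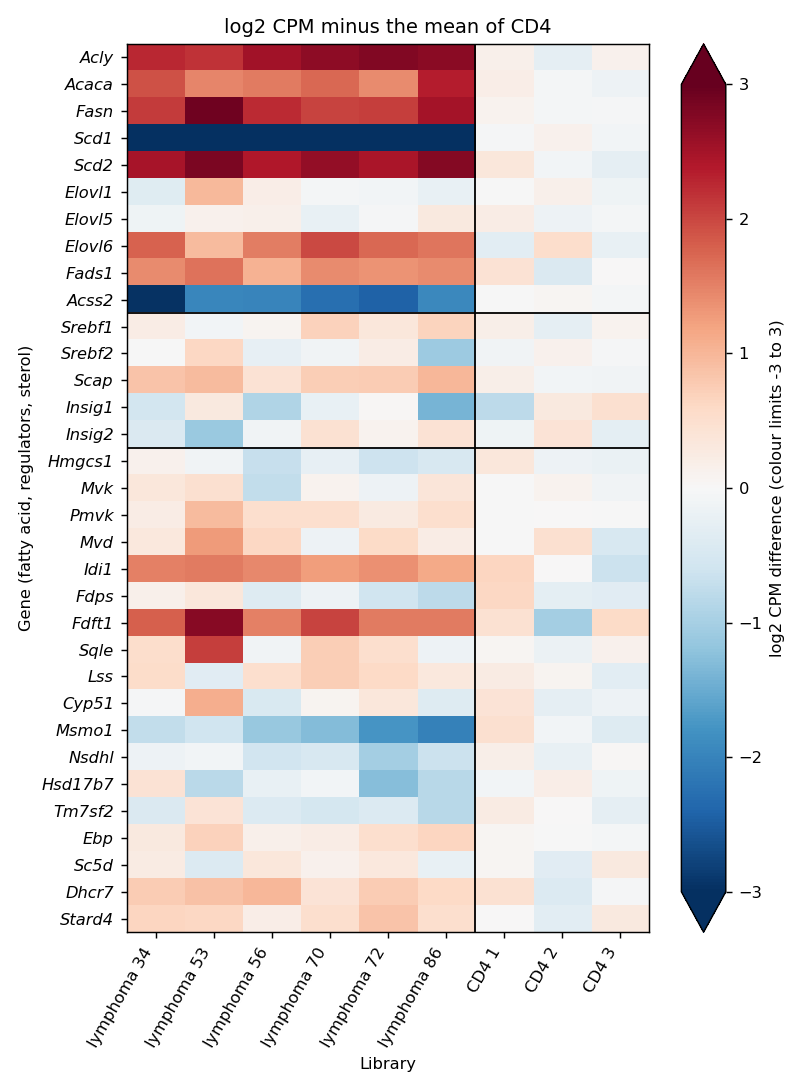
Difference of each library's log2 CPM from the CD4 mean, for the 33 tested members in rows and the 9 libraries in columns, with horizontal lines between the fatty acid, regulator and sterol groups. Colours are limited to -3 and 3, which Scd1 exceeds in every lymphoma, and lymphoma 53 is the reddest column for Sqle and Fdft1.

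Spread among the lymphomas was described by the SD of log2 CPM. The median SD of log2 CPM within lymphoma was 0.40 over sterol genes, 0.33 over fatty acid genes and 0.47 over all tested genes, and 0.28, 0.21 and 0.34 without lymphoma 53. Scd2 (SD 0.17) and Idi1 (0.17) varied least of the members and Sqle (0.81, or 0.41 without lymphoma 53) most. Lymphoma 53 had the highest lymphoma value at 12 of 18 sterol genes and 4 of 10 fatty acid genes, where the share over all tested genes is 30.5%. The mean of the sterol genes, as log2 CPM minus the CD4 mean, was 0.60 in lymphoma 53, 0.37 in lymphoma 34, 0.21 in 70, 0.10 in 72, 0.09 in 56 and -0.03 in 86. CD4 1, 2 and 3 stood at 0.23, -0.13 and -0.10, so the groups overlapped in it. The same mean over the fatty acid genes, which includes Scd1 and Acss2, was 0.25 to 0.54 in lymphoma and -0.09 to 0.11 in CD4. In lymphomas 34 and 53 it lay below the sterol mean, at 0.25 and 0.48, so the branches stood apart in their medians and not in these means.

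Lymphomas 53 and 86 marked opposite ends for 7 members. Srebf2, Insig1, Idi1, Fdps, Sqle, Msmo1 and Tm7sf2 were highest of the 6 lymphomas in 53 and lowest in 86, a pattern found at 5.82% of all tested genes and at 21.2% of the members. These genes were picked out after their values were seen. Acaca, of the fatty acid branch, was highest in lymphoma 86. Lymphoma 53 also had the highest summed T cell, B cell, myeloid, stromal and epithelial, and adipocyte markers of the lymphomas. Its adipocyte sum of 10.96 CPM was mostly Fabp4 (9.22 CPM). Retn was also highest there (0.822 CPM), but Adipoq and Pparg had 0 reads. Lymphoma 86 had the lowest summed T cell markers (1882 CPM) and the lowest summed stromal and epithelial markers (97.8 CPM). Of the latter sum, Pecam1 made up 59.3 CPM. The stromal gene Dcn went the other way, highest of the lymphomas in 86 (7.36 CPM, against 3.56 CPM in 53). The listed erythroid markers of lymphoma 86 summed to 1084 CPM, against 244 to 412 CPM in the other lymphomas. The part of these markers in the pattern was not tested.

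Promoters of the members are shown because NF-Y, which binds CCAAT boxes, works together with SREBP at many of these genes. RefSeq promoters (GRCm38.p6) matched 27 of the 34 members. Scd1, Scd2, Fads1, Fdps, Fdft1, Sqle and Stard4 had none. The 250 bases before each start were searched on both strands for CCAAT, for the sterol regulatory element form TCACNCCAC and for the E-box CACGTG, a sequence that MYC family proteins bind. CCAAT was found before at least 1 start of 14 of 14 sterol genes, 4 of 5 regulators and 4 of 8 fatty acid genes, and of 37.5% of all genes with a promoter. TCACNCCAC was found in 1 member, Hmgcs1, and in 1.22% of all genes. CACGTG was found in 6 members, namely Elovl5, Insig1, Scap, Dhcr7, Hsd17b7 and Sc5d, and in 6.86% of all genes. A match is a string of letters and not a shown binding site, and none of these motifs was tested against expression.

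For 2 fatty acid genes that were higher in lymphoma the windows read as follows, 5′ to 3′ on the gene's strand, with matches in capitals. They lie at chr11:120824548-120824797 for Fasn and chr11:100528001-100528250 for Acly, both on the minus strand. Fasn holds 3 CCAAT matches, of which the last 2 overlap on opposite strands, and Acly holds none of the 3 motifs.
Fasn: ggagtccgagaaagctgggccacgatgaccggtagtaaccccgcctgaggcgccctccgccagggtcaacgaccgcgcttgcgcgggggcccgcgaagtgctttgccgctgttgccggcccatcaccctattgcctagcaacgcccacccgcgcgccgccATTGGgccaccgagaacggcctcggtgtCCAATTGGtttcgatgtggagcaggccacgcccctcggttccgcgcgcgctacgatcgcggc
Acly: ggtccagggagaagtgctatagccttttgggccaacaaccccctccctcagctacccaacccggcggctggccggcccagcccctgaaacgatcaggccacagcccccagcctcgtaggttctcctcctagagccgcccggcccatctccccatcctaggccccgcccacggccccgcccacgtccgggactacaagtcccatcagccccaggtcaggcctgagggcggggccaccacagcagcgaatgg

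For 2 sterol genes of the mevalonate steps the windows lie at chr13:119690101-119690350 for Hmgcs1 and chr5:114444019-114444268 for Mvk, both on the plus strand. Hmgcs1 holds 3 CCAAT matches and the TCACNCCAC match, which begins 137 bases before the start. Mvk holds 5 CCAAT matches.
Hmgcs1: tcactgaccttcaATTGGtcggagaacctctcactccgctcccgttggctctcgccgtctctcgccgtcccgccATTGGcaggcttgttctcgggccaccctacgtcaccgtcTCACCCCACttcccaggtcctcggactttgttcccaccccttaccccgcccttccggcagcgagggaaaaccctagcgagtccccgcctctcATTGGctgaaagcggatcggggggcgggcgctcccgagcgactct
Mvk: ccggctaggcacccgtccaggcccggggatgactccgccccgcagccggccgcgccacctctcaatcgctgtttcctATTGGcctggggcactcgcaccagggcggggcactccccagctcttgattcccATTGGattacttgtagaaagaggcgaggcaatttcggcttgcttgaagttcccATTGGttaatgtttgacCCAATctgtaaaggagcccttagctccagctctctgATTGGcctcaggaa

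The rest of lipid metabolism was read from 5 further lists, 109 genes in all, of which 94 were tested. By edgeR with adjustment over all tested genes, 31 were higher and 10 lower, 43.6% against 46.6% of all tested genes. Their median log2 fold change was 0.21. Lists were not tested as sets, so each is described by its counts. Over all tested genes 24.7% were higher and 21.9% lower. The share called in either direction was 66.7% in fatty acid oxidation and 37.5% in uptake and storage. It was 24% in sterol uptake, efflux and control, 50% in the remaining synthesis genes and 46.2% in the isoprenoid genes.

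Fatty acid oxidation, the breakdown route in mitochondria, had 11 of 18 tested genes higher and 1 lower, with a median log2 fold change of 0.96. Cpt1a, the gate enzyme for entry of long chains, rose from 23.3 to 29.2 CPM in CD4 to 56.1 to 76.4 CPM in lymphoma (1.33, SE 0.18, edgeR adjusted p 0.000104). Hadh rose by 1.89 (SE 0.22, edgeR adjusted p 3.14e-05) and the electron carrier subunit Etfb by 1.84 (SE 0.27, 0.000172). Slc25a20, the carnitine carrier, fell by 0.77 (SE 0.25, 0.0268), a call lost without lymphoma 34 or 86 or any 1 CD4 library. Hadh, with the largest log2 fold change of the list, had 93.9 to 137 CPM in lymphoma and 22.0 to 36.3 CPM in CD4.

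Uptake and storage genes had 3 of 16 higher and 3 lower, where 24.7% and 21.9% of all tested genes were. Fabp5, a fatty acid binding protein, rose from 5.40 to 5.96 CPM in CD4 to 46.4 to 140 CPM in lymphoma (log2 fold change 4.03, SE 0.35, edgeR adjusted p 4.09e-06). Pnpla2, the main triglyceride lipase, rose by 0.55 (SE 0.17, 0.0210), and this was lost without CD4 1 or 3. The fatty acid receptor Cd36, also known from myeloid cells, fell by 3.0 (SE 0.63, 0.00211), or by 2.37 without CD4 3. Lipe, the hormone-sensitive lipase, fell by 1.05 (SE 0.40, 0.0478), a call lost without any 1 of lymphomas 34, 56 and 86 or of the CD4 libraries.

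Genes of sterol uptake, efflux and control were called at 6 of 25, with 2 higher and 4 lower. Tmem97, an SREBP2 target that binds the cholesterol transporter NPC1, rose from 1.56 to 3.24 CPM to 18.7 to 71.9 CPM (log2 fold change 3.77, SE 0.50, edgeR adjusted p 9.17e-05), highest in lymphoma 53. The HDL receptor Scarb1 rose by 1.25 (SE 0.17, 0.000129). Lipa, the lysosomal acid lipase, fell by 2.20 (SE 0.22, 1.05e-05), and the ubiquitin ligase gene Mylip by 1.61 (SE 0.23, 0.000181). Of the same list, Abca1 (-0.59, SE 0.38, edgeR adjusted p 0.225) and Abcg1 (0.03, SE 0.23, 0.927) did not pass.

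In the remaining synthesis genes, 9 of 22 tested were higher and 2 lower. Acat1, a mitochondrial thiolase, rose by 1.5 (SE 0.30, edgeR adjusted p 0.00145). Elovl7 fell by 2.50 (SE 0.70, 0.0113), or by 3.33 without lymphoma 53, and lost its call without CD4 2. The isoprenoid genes, which draw on the mevalonate pathway for protein prenylation, dolichol and ubiquinone, had 6 of 13 higher and 0 lower. Rabggtb, a prenyltransferase subunit, rose by 1.13 (SE 0.16, edgeR adjusted p 0.000177) and Nus1, a dolichol synthesis subunit, by 0.92 (SE 0.18, 0.00137).

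**Figure D4:**
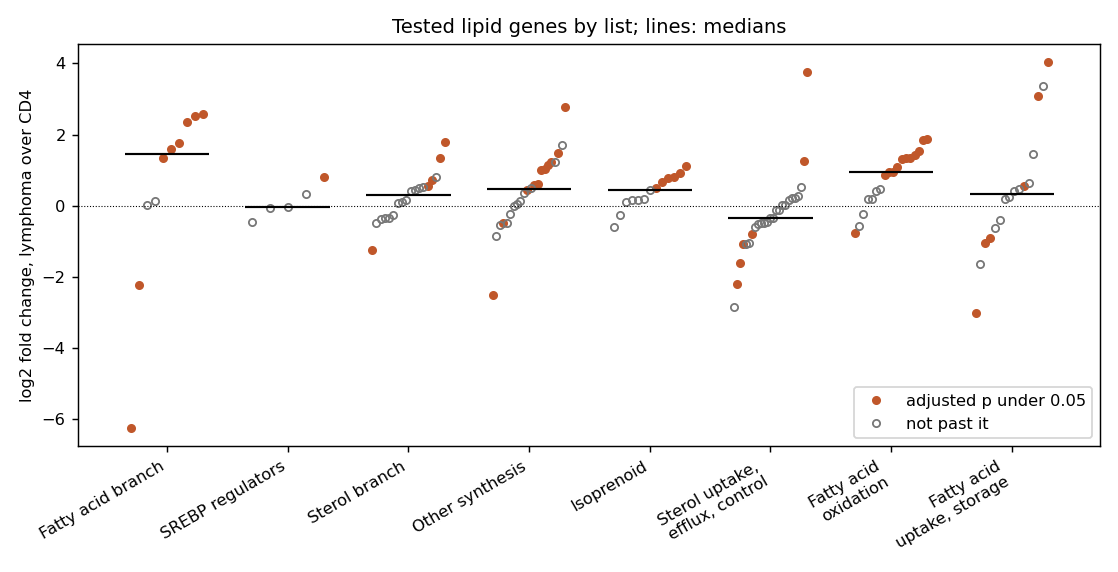
Log2 fold change of every tested lipid gene by list, with a line at each list's median, filled points for an edgeR adjusted p under 0.05 and open points for the others. The fatty acid branch has the highest median at 1.47 and the widest range, and the sterol uptake list the lowest at -0.35.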

How the data were processed

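The deposited table holds raw read counts per Ensembl gene and library, made by the authors, with 5 closing summary rows. FastQC, HISAT2, SAMtools and HTSeq and the builds mm10 and GRCm38 are named in the submitters' processing notes. Versions, annotation and strand setting are not given in the sources used here, so overlapping and antisense genes are uncertain. The summary rows entered no library size. Reads in genes made up 38.7 to 49.1% of each lymphoma library and 27.8 to 35.0% of each CD4 library, and reads in no feature 16.6 to 22.5% and 30.4 to 33.3%. These shares differ with the groups, and their part in the results was not tested. Reads aligned to several places (16.1 to 18.6% in lymphoma, 11.6 to 14.0% in CD4) are in no gene's count, so genes with near copies are undercounted.

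The test was edgeR 4.0.16 under R 4.3.3, run on the counts (filterByExpr with a minimum count of 10, TMM scaling, glmQLFit with robust estimation and glmQLFTest, all 9 libraries, no covariate). P-values were adjusted by Benjamini and Hochberg over 15401 tested genes, with 0.05 as threshold. SE was obtained as the size of the log2 fold change over the root of the F statistic. CPM uses TMM-scaled library sizes, and log2 CPM a prior count of 2. The edgeR fit was tried on simulated counts with planted fold changes, and the other steps were not. Alternatives used other scalings and filters, DESeq2 1.42.0, limma 3.58.1 (voom), a threshold of 0.01, averaging of lymphomas 34, 70 and 72, and leaving out each library. The members and lists were chosen with earlier results of these data known. All members are named. Of the other lists, genes chosen by name are given (some are not reported here), with up to 2 largest rises and 2 largest falls per list among called genes without overlap and with an average log2 CPM of at least 1. Gene positions are from GENCODE M21 (GRCm38), matched by Ensembl ID. Shared words of 50 bases were counted on either strand over its transcripts.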

Additional observations from a re-analysis of the deposited data

Results flagged for a closer look

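Each of the 33 tested members and 3 branch means was examined over the 6 lymphomas for a library whose gap to its nearest neighbour exceeded Dixon's 95% critical share of the whole range. This held for 5 of 36, all of them genes (15.2% of the 33). Among normal samples about 1 in 20 would pass, but 16.8% of all tested genes did in these lymphomas. In all 5 the library was lymphoma 53, at its high end. Sqle had 75.3 CPM in lymphoma 53 against 16.0 to 29.8 CPM in the other lymphomas. Fdft1 had 21.4 CPM against 9.17 to 13.1 CPM. Pmvk had 29.5 CPM against 17.9 to 21.8 CPM, and Tm7sf2 had 7.58 CPM against 3.10 to 4.25 CPM. The 1 fatty acid gene of this kind was Elovl1, with 68.1 CPM against 26.6 to 39.4 CPM. Without lymphoma 53 the log2 fold changes were 0.34 for Sqle, 1.57 for Fdft1, 0.41 for Pmvk, -0.55 for Tm7sf2 and -0.11 for Elovl1, and Fdft1 kept its call.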

How the results depend on the processing

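Over 18 alternatives, 205 of 216 recomputed counts and medians stayed within 1.5 times or within the spread between lymphomas. None of the medians changed sign, which a count cannot do. At an adjusted p under 0.01 the medians are those of the main fit and could not move. The fatty acid median was 1.37 to 1.53 and the sterol median 0.20 to 0.45 in all of them. Sterol genes called higher (4) numbered 2 with upper quartile scaling and 1 at an adjusted p under 0.01, and 1 to 5 when 1 library was left out. Sterol genes called lower (1) numbered 0 to 1 when 1 library was left out. Fatty acid genes called lower (2) numbered 1 where every library had to hold a minimum of 10 counts, which leaves Scd1 untested. Other lipid genes called lower (10) numbered 5 at an adjusted p under 0.01, and 6 to 16 when 1 library was left out, with 16 without lymphoma 53 and 6 without CD4 2 or CD4 3. Uncalled members near 0 also changed sign, Elovl5 and Srebf2 in 6 alternatives each, Insig2 in 3, Sc5d in 2 and Elovl1, Fdps and Cyp51 in 1 each. The log2 fold change of Abcg1, which did not pass, changed sign, to -0.0282 with RLE scaling, -0.0690 with upper quartile scaling, -0.0111 with library size alone, -0.0330 with that count minimum and -0.0283 with DESeq2, and it ranged from -0.145 to 0.166 when 1 library was left out. Apart from Scd1 being left untested by that count minimum, the causes of these changes between alternatives were not tested. No paired analysis was possible because the groups share no replicate numbers. At these depths a count of 0 allows up to 0.184 to 0.360 CPM.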
